A study of Mus musculus with 12 samples.

Results

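A set of 8 nephron progenitor genes, *Six2*, *Eya1*, *Cited1*, *Osr1*, *Meox1*, *Crym*, *Sall1* and *Pax2*, were followed in RNA-seq data of whole mouse kidneys at postnatal day 3 (P3). They were chosen by name as regulators and markers of the cap mesenchyme, with earlier results of these data known. All 8 were found among the 24062 gene symbols of the count files. The study compared 12 kidneys in 4 groups of 3. LIN28B OE kidneys carried a human *LIN28B* transgene, which doxycycline switches on through a transactivator that *Wt1-Cre* frees from a stop cassette, and so it is confined to cells with a history of *Wt1* expression. Their wild type (WT) littermates were of the same C57BL/6 strain. The let-7 KO kidneys carried a constitutive deletion of *let-7a1*, *let-7d* and *let-7f1* on a mixed strain of CD1 and C57BL/6, and were compared with WT littermates of that mixed strain. In each group kidneys 1 and 2 came from litter 1 and kidney 3 came from litter 2. Litters of the same number in a model and its controls are read as shared, because the controls are called littermates. The labels do not state this, and the comparisons within a litter and the litter block rest on it. The study induced LIN28B with doxycycline in the drinking water, while the labels do not give the induction of these kidneys or the sex of the pups.

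The cap mesenchyme is a shell of progenitor cells around each tip of the branching ureteric bud. These cells either renew themselves or turn into epithelium and build a nephron, and in the mouse the pool is used up in the first days after birth. Six2 is the transcription factor that holds the cells in the progenitor state, and Eya1 is its transcriptional co-activator and phosphatase partner. Cited1, a transcriptional co-regulator, marks the most undifferentiated cap cells, in which the homeobox factor Meox1 and the thyroid hormone binding protein Crym are also found. Osr1 acts in the earliest kidney mesenchyme, the zinc finger factor Sall1 works beside Six2, and the paired box factor Pax2 is present in the ureteric bud and in the first epithelial structures as well. LIN28B is an RNA-binding protein that blocks the maturation of let-7 microRNAs, and let-7 microRNAs repress mRNAs that pair with their seed.

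The 3 microRNAs removed in the let-7 KO are shown because they define that model, with the seed (bases 2 to 8) in capitals. The sequences are those of RefSeq on GRCm38.p6, and all lie on the minus strand of chromosome 13, at chr13:48538239-48538260 for let-7a-5p, at chr13:48536078-48536099 for let-7d-5p and at chr13:48537889-48537910 for let-7f-5p.
let-7a-5p: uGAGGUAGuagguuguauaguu
let-7d-5p: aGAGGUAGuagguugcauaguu
let-7f-5p: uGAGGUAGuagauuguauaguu
The 3 share 1 seed, GAGGUAG. The letters that pair with it, CTACCTC or TACCTCA (both together being CTACCTCA), were searched on the transcript strand of the longest annotated 3′ UTR of each gene (GENCODE M21). None of the 8 progenitor genes held them, and 2957 of the 19282 coding genes (15.3%) did. Most coding genes thus held none either, so the absence does not set the 8 genes apart. The members' 3′ UTRs ran from 76 bases in *Cited1* to 1962 in *Eya1*, with a median of 1002 bases, which was also the median of all coding genes. For contrast, *Hmga2*, a chromatin protein gene and textbook let-7 target, held 7 such matches. Its single 8-base match lies at chr10:120364213-120364242 on the minus strand, with the match in capitals.
*Hmga2*: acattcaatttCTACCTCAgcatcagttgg
A match is a description of letters, and no match says only that these letters are not in this window.

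Counts per kidney summed to between 39926235 and 61872736, with a median of 56148917, so that 3 counts stand for 0.0485 to 0.0751 CPM (read counts scaled to library size). Levels below are CPM with TMM scaling over all 12 kidneys, and fold changes are from edgeR's quasi-likelihood test with Benjamini-Hochberg adjustment over all genes tested, in which a gene was called at an adjusted p below 0.05. *Hmga2*, the let-7 target, stood at 12.4, 14.5 and 16.4 CPM in C57BL/6 WT kidneys and at 207, 205.9 and 155.9 CPM in LIN28B OE kidneys. It stood at 9.68, 7.72 and 10.4 CPM in mixed WT kidneys and at 12.3, 21.8 and 31.6 CPM in let-7 KO kidneys. Reads given to mouse *Lin28b* numbered 232, 224 and 71 in LIN28B OE kidneys and 0, 18 and 33 in their controls, and reads of the human transgene cannot be told apart from mouse reads there. *Mirlet7d*, one of the deleted genes, had 0 counts in each of the 3 let-7 KO kidneys and 0, 19 and 35 in their controls, so the count of 0 does not separate control kidney 1 from the knockouts. Tubule, podocyte, endothelial and stromal genes were present in every kidney, and the summed level of 6 adrenal cortex genes was at most 5.33 CPM.

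In LIN28B OE kidneys the core progenitor pair rose together. *Six2* (chr17:85684277-85688274, minus strand, 2 exons) was at 12.8, 10.2 and 14.9 CPM in the WT littermates and at 111.2, 108.2 and 165.9 CPM in LIN28B OE kidneys. The lowest LIN28B OE kidney lay far above the highest control, and the litter 2 kidney was the highest in both groups. The log2 fold change was 3.35 ± 0.237 (SE, n = 3 per group), a 10.2-fold difference in CPM (edgeR, adjusted p = 0.000797). *Eya1* (chr1:14168954-14310235, minus strand, 18 exons) was at 6.73, 10.2 and 12.9 CPM in WT littermates and at 29.3, 38.1 and 54.6 CPM in LIN28B OE kidneys. The groups did not overlap, and both spread by about the same factor from kidney to kidney. For *Eya1* the log2 fold change was 2.04 ± 0.311 (SE, n = 3 per group; edgeR, adjusted p = 0.0185). The ratio of *Six2* to *Eya1* in CPM went from 1 to 1.9 in the controls to 2.84 to 3.8 in LIN28B OE kidneys.

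Of the 3 markers of uncommitted cap cells, *Cited1* and *Crym* rose. *Cited1* (chrX:102247381-102252181, minus strand, 3 exons) was at 8.26, 5.002 and 9.86 CPM in WT littermates and at 90.6, 79.0 and 63.0 CPM in LIN28B OE kidneys. The groups lay far apart, and the litter 2 kidney was the lowest of the LIN28B OE kidneys for *Cited1* and the highest for *Six2*. The log2 fold change of *Cited1* was 3.33 ± 0.275 (SE, n = 3 per group) (edgeR, adjusted p = 0.000938). *Crym* (chr7:120186380-120202111, minus strand, 8 exons) was at 16.4, 13.9 and 18.3 CPM in WT littermates and at 52.0, 50.1 and 40.5 CPM in LIN28B OE kidneys. It rose by a log2 fold change of 1.55 ± 0.193 (SE, n = 3 per group; edgeR, adjusted p = 0.00804), and again litter 2 was the lowest of the LIN28B OE kidneys. *Meox1* (chr11:101877510-101894374, minus strand, 3 exons) was at 16.9, 19.8 and 20.1 CPM in WT littermates and at 35.3, 31.1 and 33.9 CPM in LIN28B OE kidneys. Its groups did not overlap either, but the log2 fold change of 0.83 ± 0.183 (SE, n = 3 per group) missed the threshold (edgeR, adjusted p = 0.0630).

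Of the 3 broader regulators, only *Osr1* passed the test. *Osr1* (chr12:9570116-9581500, plus strand, 3 exons) was at 5.68, 6.61 and 6.63 CPM in WT littermates and at 17.0, 19.7 and 21.7 CPM in LIN28B OE kidneys. It rose by a log2 fold change of 1.63 ± 0.243 (SE, n = 3 per group; edgeR, adjusted p = 0.0176), with little spread within either group. *Sall1* (chr8:89027235-89044162, minus strand, 4 exons) was at 62.5, 61.1 and 52.3 CPM in WT littermates and at 76.8, 76.5 and 70.9 CPM in LIN28B OE kidneys. The LIN28B OE kidneys were the higher ones throughout, by a log2 fold change of 0.35 (95% interval 0.0214 to 0.682; edgeR, adjusted p = 0.247). *Pax2* (chr19:44756045-44837871, plus strand, 10 exons) was at 19.2, 20.4 and 24.01 CPM in WT littermates and at 25.6, 30.2 and 24.7 CPM in LIN28B OE kidneys. The lowest LIN28B OE kidney lay just above the highest control, and the log2 fold change was 0.34 (95% interval -0.0913 to 0.777; edgeR, adjusted p = 0.398). For *Sall1* and *Pax2*, then, a rise as large as that of *Crym* lies outside the interval.

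**Figure D1:**
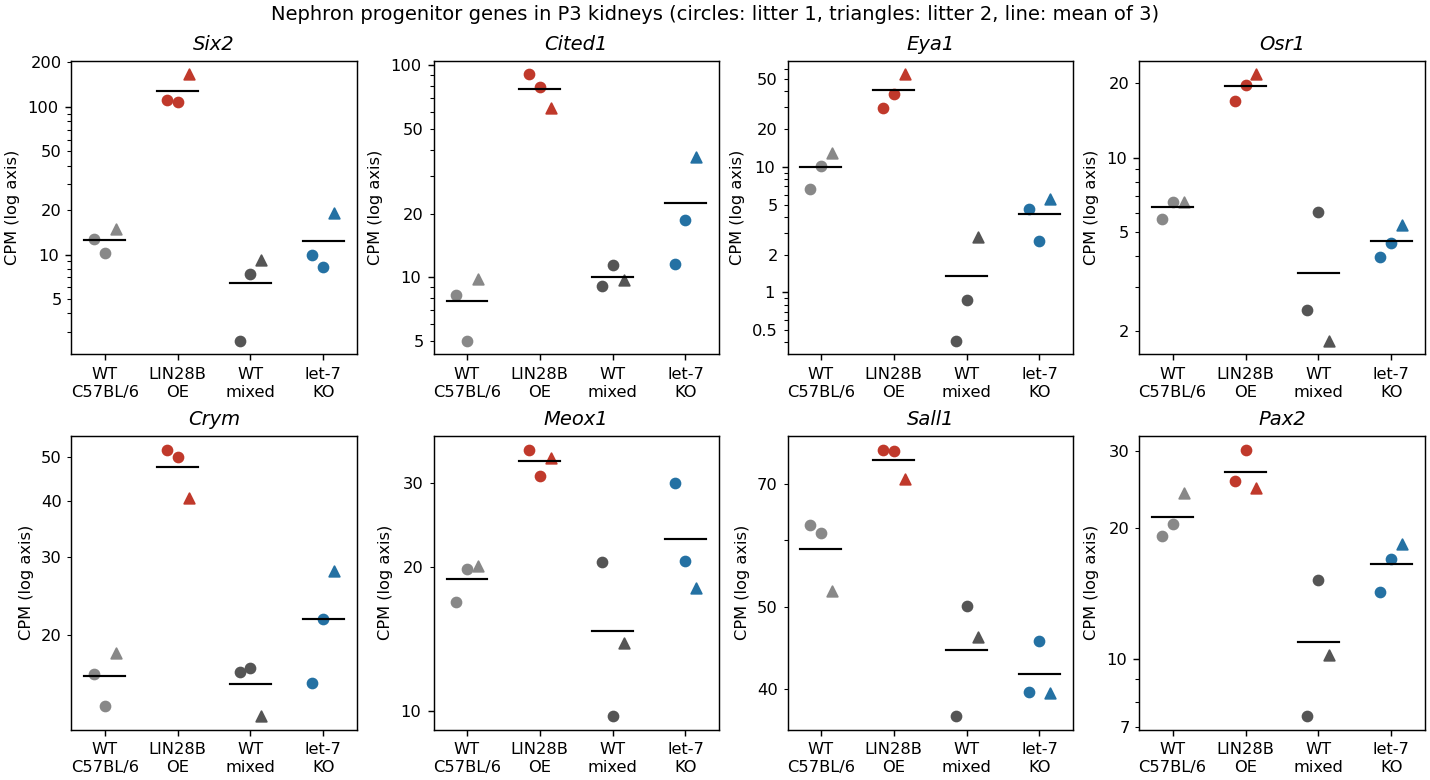
Level of each of the 8 genes (CPM, log axis with its own range in each panel) in every kidney of the 4 groups, with circles for litter 1, triangles for litter 2 and a line at the mean of 3 kidneys. *Six2* in LIN28B OE kidneys lies between 108.2 and 165.9 CPM against 10.2 to 14.9 in their controls, while *Sall1* and *Pax2* differ little between these groups.

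Thus 5 of the 8 genes (*Six2*, *Cited1*, *Eya1*, *Osr1* and *Crym*) were called higher in LIN28B OE kidneys, where 0.462% of the 15793 genes tested were. At the study's threshold of an unadjusted p below 0.01, 6 of the 8 were higher, against 3.25% of all genes. All 8 had every LIN28B OE kidney above every control kidney, as did 10.3% of all genes. The 8 genes were chosen with earlier results of these data known, so these shares are a description and no independent test. On the log2 scale the 8 fold changes had a median of 1.59, and those of all genes tested -0.0162. The call did not hang equally on all kidneys. *Six2* and *Cited1* were called with any kidney left out, but without C57BL/6 WT kidney 1 or kidney 2 they were the only 2 called, and without LIN28B OE kidney 2 *Crym* joined them as the third. One fit of all 12 kidneys called 3 genes, losing *Eya1* (edgeR, adjusted p = 0.0799) and *Osr1* (edgeR, adjusted p = 0.0687). With litter as a block the same 5 genes were called, while over all genes the calls went from 194 to 95.

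Whole kidneys were sequenced, so a larger number of cap cells and more RNA per cell cannot be told apart. Genes of other cell types moved too. The summed level of 12 mature tubule genes was 2114 to 3117 CPM in LIN28B OE kidneys and 4527 to 4916 CPM in their controls, and that of 5 endothelial genes was 249.7 to 251.9 CPM against 349.9 to 409.0 CPM. The summed level of 6 proliferation genes was 898.3 to 1018 CPM against 725.1 to 795.2 CPM. No gene of these 3 lists was at 0 in all kidneys, and the part of these shifts in the members' changes was not tested.

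Compared per kilobase of the longest coding transcript, the 8 genes changed their order between the groups. In C57BL/6 WT kidneys *Crym* (mean 11.7 CPM per kb) and *Sall1* (11.1) stood highest, with overlapping kidneys. *Eya1* had the lowest mean at 2.28 ± 0.709 CPM per kb (SD, n = 3), and its kidneys overlapped with those of *Osr1* (3.13). *Six2* took place 5 of 8 there, at 5.96 ± 1.10 CPM per kb (SD, n = 3), and did not separate from its neighbours *Cited1* (7.07) and *Pax2* (4.86). In LIN28B OE kidneys *Cited1* stood at 71.1 ± 12.7 and *Six2* at 60.6 ± 15.3 CPM per kb (SD, n = 3). Their kidneys overlapped with each other and with no other member, and *Crym* came next at 34.4 CPM per kb. *Pax2* now had the lowest mean at 6.16 CPM per kb, with kidneys that overlapped with those of *Eya1* (9.31). The sum of the 8 genes was 50.2 to 60.0 CPM per kb in the controls and 213.7 to 224.7 in LIN28B OE kidneys. *Six2* supplied 10.8% ± 1.11 (SD, n = 3) of that sum in the controls and 27.4% ± 6.63 in LIN28B OE kidneys, whereas the share of *Sall1* was 20.6% ± 3.53 and 6.44% ± 0.384.

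**Figure D2:**
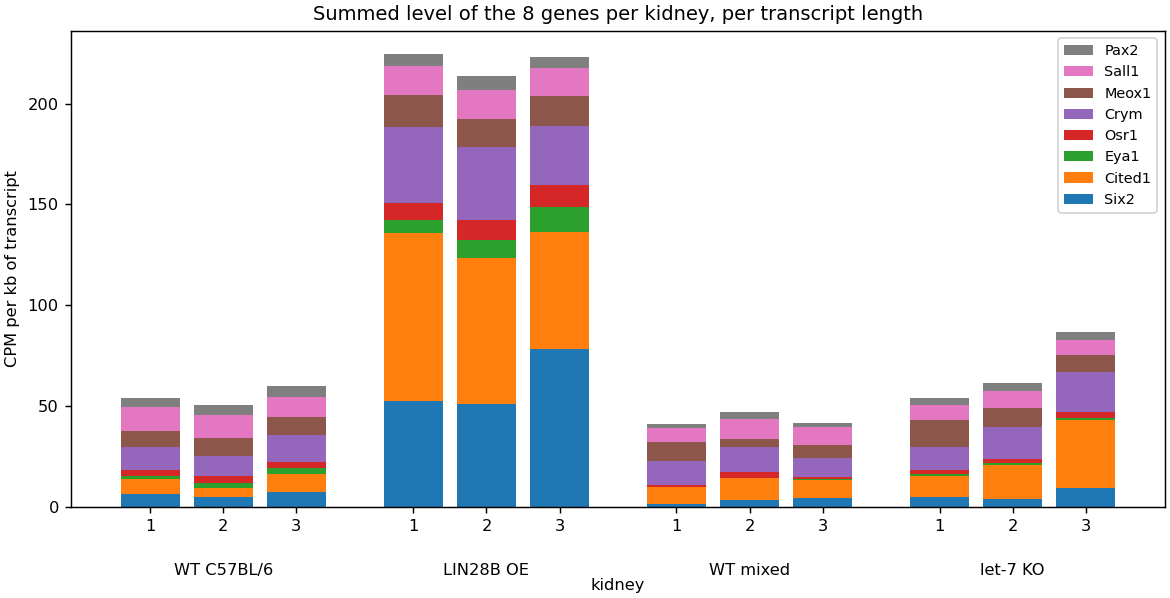
Summed level of the 8 genes in each of the 12 kidneys (CPM per kb of the longest coding transcript), with the part of each gene as a colour. The 3 LIN28B OE bars reach 213.7 to 224.7 and consist mostly of *Cited1* and *Six2*, while the highest let-7 KO bar reaches 86.8.

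In let-7 KO kidneys none of the 8 genes was called, where 0.0194% of the 15500 genes tested (3 genes) were called in either direction (edgeR, adjusted p below 0.05). None of the 8 had an unadjusted p below 0.01 and a higher level, as 1.1% of all genes did. At an unadjusted p below 0.05 there was 1 (*Cited1*), and the share of all genes at that threshold was not counted. DESeq2 gave an adjusted p for 1 of the 8, *Sall1*, and did not call it, and its independent filter left the other 7 without one. Of the 8 fold changes, 7 were above 0, with a median of 0.60 on the log2 scale beside -0.0229 for every gene tested.

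*Cited1* was the only member whose groups did not overlap, which held for 7.87% of all genes. It was at 9.06, 11.4 and 9.71 CPM in mixed WT kidneys and at 11.5, 18.6 and 36.9 CPM in let-7 KO kidneys, so that kidney 1 of the knockout lay just above the highest control and kidney 3 far above it. The log2 fold change was 1.12 ± 0.403 (SE, n = 3 per group; edgeR, adjusted p = 0.379). *Six2* was at 2.59, 7.37 and 9.18 CPM in mixed WT kidneys and at 9.97, 8.22 and 19.05 CPM in let-7 KO kidneys. Knockout kidney 2 fell below the litter 2 control, yet within each litter every knockout was above every control. The log2 fold change of *Six2* was 0.94 (95% interval -0.194 to 2.08; edgeR, adjusted p = 0.541).

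*Eya1* had the largest fold change of the 8 in the let-7 KO and the widest interval. It was at 0.409, 0.863 and 2.75 CPM in mixed WT kidneys, which is 24, 47 and 162 counts, and at 4.63, 2.55 and 5.54 CPM in let-7 KO kidneys. Knockout kidney 2 overlapped with the litter 2 control. The log2 fold change was 1.65 (95% interval -0.208 to 3.50; edgeR, adjusted p = 0.508), and it ran from 1.22 to 2.71 with 1 kidney left out, the highest being without mixed WT kidney 3. *Meox1* was at 20.5, 9.74 and 13.9 CPM in mixed WT kidneys and at 30.03, 20.6 and 18.1 CPM in let-7 KO kidneys, a log2 fold change of 0.63 (95% interval -0.128 to 1.39; edgeR, adjusted p = 0.541). *Six2*, *Eya1*, *Cited1* and *Meox1* were thus the 4 of 8 genes with each knockout above each control within both litters, which was so for 10.7% of all genes.

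The other 4 genes overlapped both between the groups and within a litter. *Crym* was at 16.6, 16.9 and 13.2 CPM in mixed WT kidneys and at 15.6, 21.8 and 27.9 CPM in let-7 KO kidneys. *Pax2* was at 7.41, 15.2 and 10.2 CPM in mixed WT kidneys and at 14.3, 17.0 and 18.4 CPM in let-7 KO kidneys. Both had knockout kidney 3 as the highest of all 6, as *Cited1* and *Six2* did, with log2 fold changes of 0.46 (95% interval -0.179 to 1.10) for *Crym* and 0.58 (95% interval -0.171 to 1.32) for *Pax2*. *Osr1* was at 2.44, 6.06 and 1.82 CPM in mixed WT kidneys and at 3.99, 4.51 and 5.35 CPM in let-7 KO kidneys, a log2 fold change of 0.40 (95% interval -0.933 to 1.74). *Sall1* was at 37.1, 50.2 and 46.1 CPM in mixed WT kidneys and at 39.6, 45.6 and 39.6 CPM in let-7 KO kidneys. It was the 1 member with a fold change below 0, and its log2 fold change of -0.11 had the narrowest interval of the 8 (95% interval -0.576 to 0.349). The adjusted p of these 4 genes lay between 0.567 and 0.885 (edgeR).

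Several let-7 KO fold changes shifted when a slope on transcript length entered the fit. The slope of a kidney's log2 levels, taken as deviations from the mean over kidneys, on log2 transcript length was 0.0577, -0.0636 and 0.120 in mixed WT kidneys and 0.0169, -0.127 and -0.169 in let-7 KO kidneys, so that short transcripts read relatively high in knockout kidneys 2 and 3. Libraries were numbered 31, 32 and 33 in mixed WT and 34, 35 and 36 in let-7 KO kidneys. Library number and genotype therefore cannot be told apart here. The slope is computed from the levels themselves, and whether it comes from the libraries or from the kidneys was not tested. *Cited1* has the shortest transcript of the 8 (1090 bases) and *Crym* the next shortest (1383 bases). With this slope as a covariate the log2 fold change of *Cited1* was 0.45 and that of *Crym* 0.08, while those of *Eya1* and *Meox1* became 2.40 and 1.07 and that of *Osr1* turned to -0.10. Long transcripts moved as well, *Pax2* (4358 bases) from 0.58 to 0.28 and *Sall1* (5265 bases) from -0.11 to -0.18. The slope also varied in the other model, at 0.125, 0.0697 and -0.0152 in C57BL/6 WT and -0.065, -0.0561 and 0.107 in LIN28B OE kidneys. Short transcripts thus read relatively low in LIN28B OE kidney 3, where *Cited1* and *Crym* were the lowest of that group. A link between them was not tested. The same covariate left the LIN28B effects of *Six2* at 3.44 and of *Cited1* at 3.17, and *Meox1* was then also called there (edgeR, adjusted p = 0.0356), as it was with DESeq2.

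**Figure D3:**
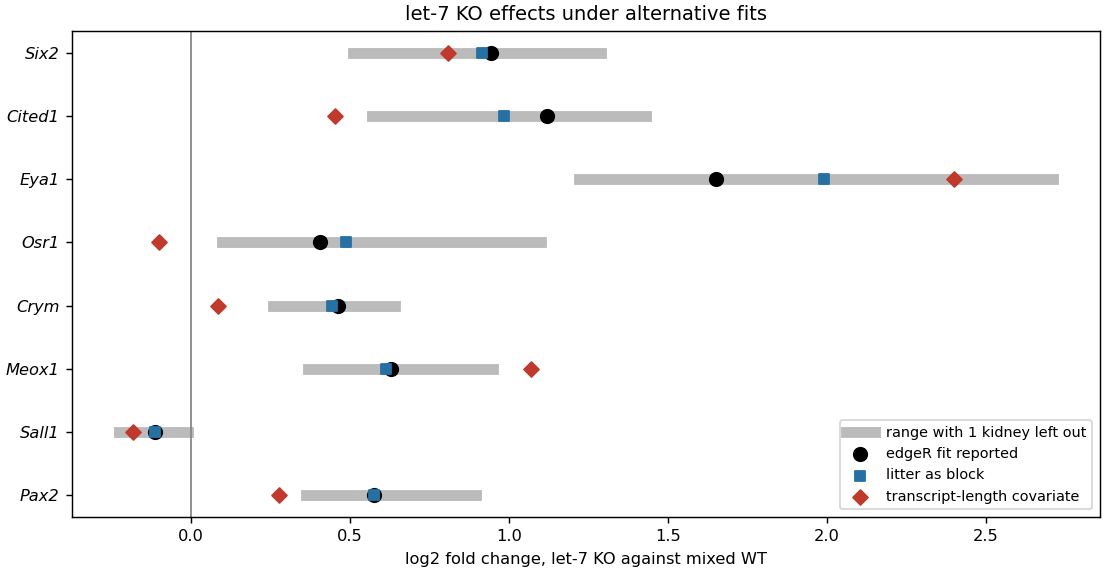
Log2 fold change of each gene between let-7 KO and mixed WT kidneys in the reported edgeR fit (black), with litter as a block (blue), with the transcript-length slope as a covariate (red) and as the range with 1 kidney left out (grey). The red point of *Osr1* falls below 0, that of *Cited1* falls from 1.12 to 0.45, and that of *Eya1* moves up from 1.65 to 2.40.

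Whether the effects of LIN28B OE and let-7 KO on these genes differ was tested directly, with an interaction term over the 12 kidneys, each model against its own littermates. The LIN28B effect on *Six2* exceeded the let-7 KO effect by 2.39 on the log2 scale (95% interval 1.18 to 3.60; edgeR, adjusted p = 0.351), and that on *Cited1* by 2.18 (95% interval 1.09 to 3.27; edgeR, adjusted p = 0.351). For *Crym* the difference was 1.07 (95% interval 0.352 to 1.79; edgeR, adjusted p = 0.570). None of the 8 passed the adjusted threshold in edgeR, where 0.00602% of 16598 genes (1 gene) were called in either direction. *Six2*, *Cited1* and *Crym* had an unadjusted p below 0.01 with a larger LIN28B effect, as 0.512% of all genes did. No further member had an unadjusted p below 0.05. DESeq2 called *Six2* (adjusted p = 0.00943) and *Cited1* (adjusted p = 0.00974). For *Eya1* the difference was 0.38 (95% interval -1.22 to 1.98) and for *Meox1* 0.18 (95% interval -0.645 to 1.01). The *Eya1* interval is too wide to show whether the models differ for this gene. *Osr1* (1.203), *Sall1* (0.45) and *Pax2* (-0.25) also had intervals that include 0. The models differ in strain, in the cells affected and in timing as well, and these cannot be told apart.

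**Figure D4:**
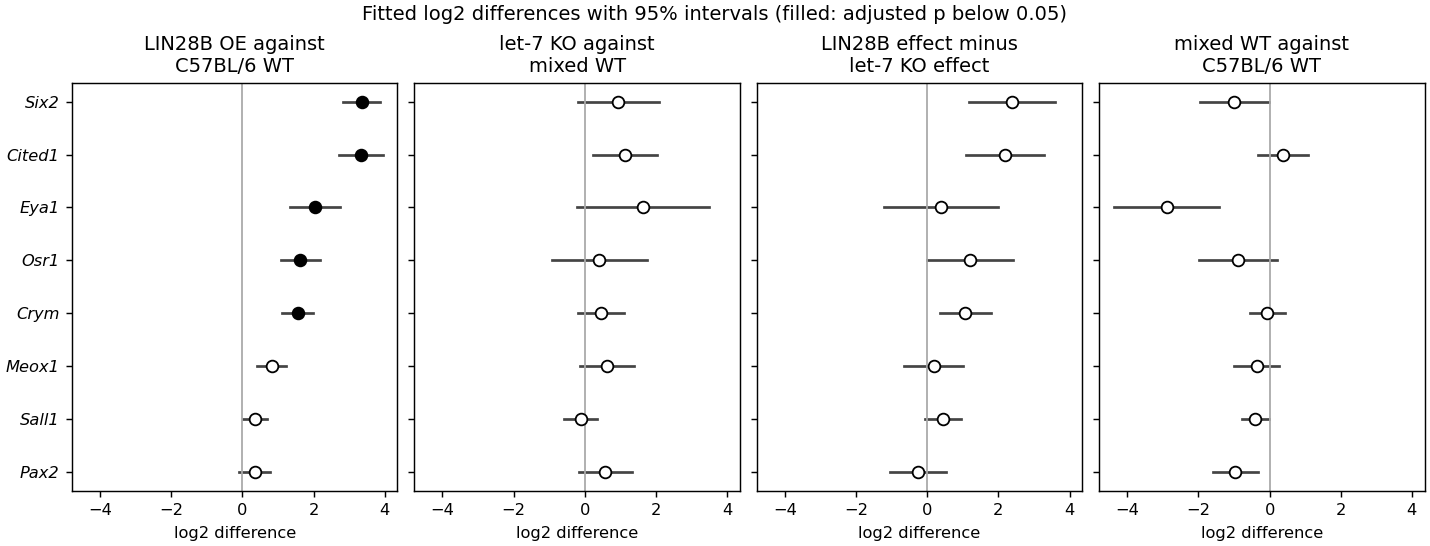
Fitted log2 differences of the 8 genes with 95% intervals in 4 comparisons, with filled points at an adjusted p below 0.05. The 5 filled points are all in LIN28B OE against C57BL/6 WT, and in the let-7 KO the interval of *Cited1* (0.232 to 2.02) is the only one that leaves out 0.

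Between the 2 control groups, 7 of the 8 fitted differences put the mixed WT kidneys below the C57BL/6 ones. *Eya1* was at 6.73 to 12.9 CPM in C57BL/6 WT kidneys and at 0.409 to 2.75 CPM in mixed WT kidneys, a log2 difference of -2.89 ± 0.661 (SE, n = 3 per group; edgeR, adjusted p = 0.0851). *Pax2* had a log2 difference of -0.96 ± 0.282 (SE, n = 3 per group; edgeR, adjusted p = 0.172) and *Six2* one of -0.99 ± 0.431 (SE, n = 3 per group; edgeR, adjusted p = 0.382). *Sall1* (-0.40), *Osr1* (-0.88), *Meox1* (-0.37) and *Crym* (-0.06) also lay below 0, and *Cited1* lay above it (0.38). None of the 8 was called in edgeR, where 1.19% of the 15850 genes tested were called in either direction. At an unadjusted p below 0.05 there were 4 of the 8, and the share of all genes at that threshold was not counted. *Eya1* and *Pax2* had an unadjusted p below 0.01 and a lower level, as 1.97% of all genes did, and *Six2*, *Eya1*, *Sall1* and *Pax2* had every mixed WT kidney below every C57BL/6 one, as 10.2% did. *Eya1* was called in one fit of all 12 kidneys (edgeR, adjusted p = 0.0307), with DESeq2 (adjusted p = 0.00032) and without mixed WT kidney 3 (edgeR, adjusted p = 0.0114). *Pax2* was called without mixed WT kidney 2 (edgeR, adjusted p = 0.0415). Most genes of several other lists also lay on the same side of 0, though edgeR called only 1 tubule gene and no podocyte or proliferation gene. Below 0 were 8 of 9 stromal and 10 of 13 ureteric bud genes. Of 12 mature tubule genes 11 lay above 0, with a summed level of 5819 to 7227 CPM in mixed WT kidneys against 4527 to 4916 CPM, as did all 5 podocyte genes (452.3 to 566.1 against 292.9 to 429.0 CPM), while all 6 proliferation genes lay below 0 (524.5 to 640.6 against 725.1 to 795.2 CPM). The part of these shifts in the members' values was not tested. Libraries were numbered 25, 28 and 29 in C57BL/6 WT kidneys and 31, 32 and 33 in mixed WT kidneys. Strain, litters and library numbers cannot be told apart in this comparison, and each control group also serves in the comparison of its own model. Set side by side, let-7 KO *Six2* (8.22 to 19.05 CPM) spanned the range of C57BL/6 WT kidneys (10.2 to 14.9 CPM), and let-7 KO *Eya1* (2.55 to 5.54 CPM) stayed below it. The order per kilobase in let-7 KO kidneys began with *Cited1* (20.5 ± 12.03 CPM per kb, SD, n = 3) and *Crym* (15.7 ± 4.42), whose kidneys overlapped, and ended with *Osr1* (2.29) and *Eya1* (0.972), which were separated from each other. In mixed WT kidneys it began with *Crym* (11.3) and *Cited1* (9.24), which overlapped, and ended with *Eya1* (0.307).

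A further 17 cap mesenchyme genes were examined beside the 8. In LIN28B OE kidneys 12 of the 17 lay above 0, with a median log2 fold change of 0.475, and edgeR called 2, both higher. DESeq2 called 8, of which *Tmem100* (-0.67 in edgeR) lay below 0. *Gdnf*, the ligand that cap cells send to the Ret receptor on the bud tip, rose by a log2 fold change of 2.16 ± 0.345 (SE, n = 3 per group; edgeR, adjusted p = 0.0212), and *Rspo1*, an enhancer of Wnt signalling, by 1.31 ± 0.174 (SE, n = 3 per group; edgeR, adjusted p = 0.00968). *Wt1*, whose promoter drives the Cre, had a log2 fold change of -0.32 (edgeR, adjusted p = 0.321). In let-7 KO kidneys 11 of the 16 genes tested lay above 0, with a median of 0.329. None was called in edgeR, with 4 at an unadjusted p below 0.05, or in DESeq2, which gave 7 of them an adjusted p. The 2 with the lowest p were *Gdnf* (log2 fold change 2.20; edgeR, adjusted p = 0.362) and *Tmem100* (1.14; edgeR, adjusted p = 0.362). Between the control groups 13 of 16 lay below 0, and *Tmem100* and *Gas1* were called lower in mixed WT kidneys, by log2 differences of -1.64 and -1.02 (edgeR, adjusted p = 0.0389 and 0.0245).

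Close relatives of the members were examined as well. Of 10 genes of the *Six2* and *Eya1* families and their Dach partners 7 were tested, and edgeR called none in any comparison, with 2 at an unadjusted p below 0.05 in LIN28B OE and 0 in let-7 KO kidneys. DESeq2 called 1, *Six4*, in LIN28B OE. Their median log2 fold change was 0.146 in LIN28B OE and 0.270 in let-7 KO kidneys, and the lowest p in LIN28B OE belonged to *Six4* (-1.55 ± 0.365, SE, n = 3 per group; edgeR, adjusted p = 0.0722). Of 7 relatives of the other members, the homeobox gene *Meox2* was called in LIN28B OE kidneys, at a mean of 18.97 CPM against 1.57 CPM in controls (log2 fold change 3.60 ± 0.384, SE, n = 3 per group; edgeR, adjusted p = 0.00337). Of these 7, 5 had an unadjusted p below 0.05, and DESeq2 called 4, *Meox2*, *Cited4*, *Osr2* and *Pax8*, of which *Osr2* (-0.60 in edgeR) and *Pax8* (-0.56 in edgeR) lay below 0. For *Meox1*, which had the higher control level, that value was 0.83, and the difference between the paralogs was not tested. In let-7 KO kidneys none of these 7 was called in edgeR, with 4 at an unadjusted p below 0.05, or in DESeq2. DESeq2 gave only 3 genes of this list an adjusted p there.

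Genes of the steps after the progenitor lay mostly below 0 in LIN28B OE kidneys. Of 12 early nephron genes 10 lay below 0 (median -0.523), and edgeR called none, with 8 at an unadjusted p below 0.05. Among them *Irx3* had a log2 fold change of -0.59 (edgeR, adjusted p = 0.108). All 12 mature tubule genes lay below 0 (median -0.843). The 4 called lower were *Slc12a3*, the thiazide-sensitive cotransporter (-1.95; edgeR, adjusted p = 0.000938), *Miox*, an inositol oxygenase (-1.62; edgeR, adjusted p = 0.00314), *Umod*, which encodes uromodulin (-1.23; edgeR, adjusted p = 0.0409), and *Slc34a1*, a phosphate transporter (-1.196; edgeR, adjusted p = 0.000977). Of 13 ureteric bud genes, *Etv4*, a target of Ret signalling, was called higher (1.06; edgeR, adjusted p = 0.0291). DESeq2 called 3 of them, *Etv4*, *Ret* and *Calb1*, and *Calb1* lay below 0 (-0.73 in edgeR). Among 9 stromal, 5 podocyte, 5 endothelial, 4 immune and 6 proliferation genes edgeR called none, with 6, 1, 4, 2 and 2 of them at an unadjusted p below 0.05, and DESeq2 called 2, 0, 4, 1 and 2. In let-7 KO kidneys edgeR called no gene of these lists. The medians there were -0.0835 for early nephron and -0.276 for mature tubule genes, each with 4 of 12 at an unadjusted p below 0.05, and DESeq2 called *Slc5a2* among the tubule genes and *Calb1* among the ureteric bud genes. It gave an adjusted p to all 12 tubule genes but to only 6 of the 13 ureteric bud genes. Between the control groups the tubule gene *Slc5a2* was called higher in mixed WT kidneys (1.15; edgeR, adjusted p = 0.0386).

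**Figure D5:**
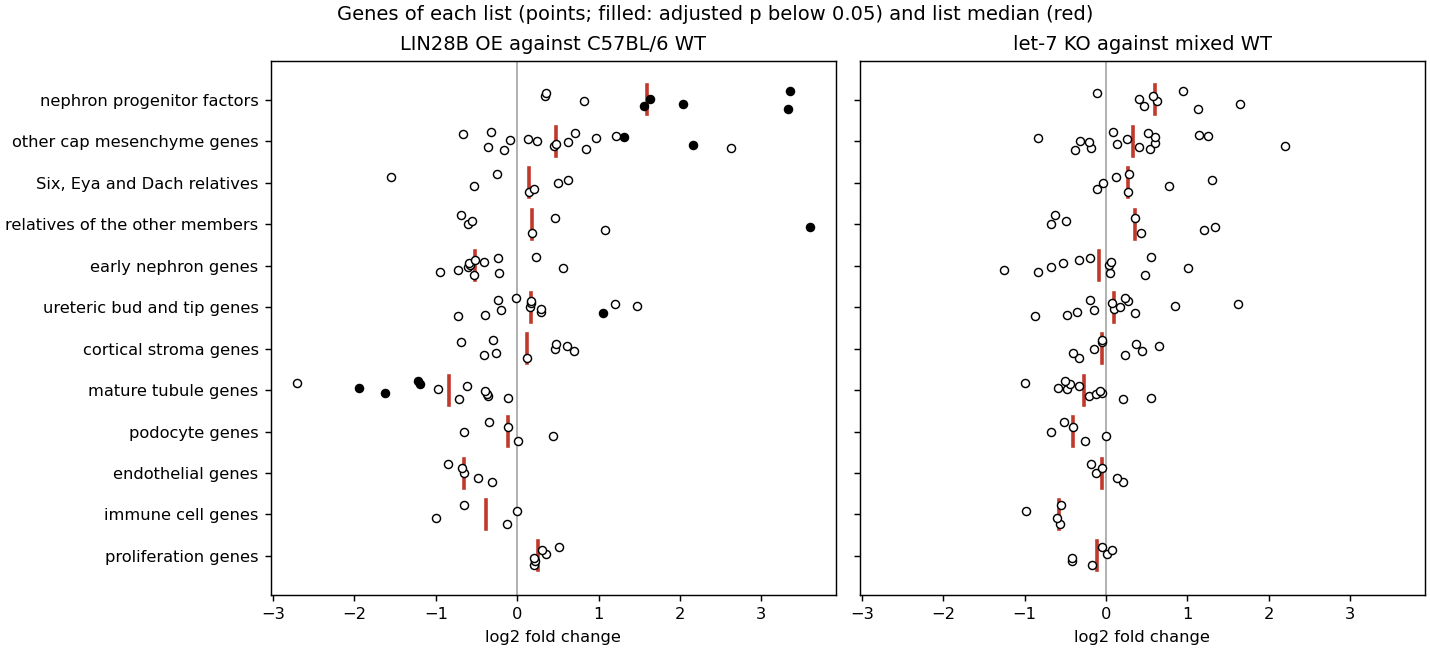
Log2 fold change of every tested gene in 12 lists (points, filled at an adjusted p below 0.05) with the list median in red, for LIN28B OE (left) and let-7 KO kidneys (right). In LIN28B OE the median of the 8 progenitor factors is 1.59 and that of the mature tubule genes -0.843, and no point is filled on the right.

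Across the 12 kidneys the gene whose log2 CPM ran most like that of *Six2* was *Vcan*, a matrix proteoglycan (Pearson r = 0.975 among 16597 genes ranked, with no test), followed by *Zc3hav1l* (0.963), *Nt5dc2* (0.962), *Prpf4* (0.957) and *Cks1b* (0.954). *Vcan* stood at a mean of 71.8 CPM in LIN28B OE kidneys and at 33.2, 22.4 and 29.6 CPM in C57BL/6 WT, mixed WT and let-7 KO kidneys. The 3 LIN28B OE kidneys stand apart from the other 9 in *Six2*, and r over all 12 includes that step. After each group's mean was taken away, the likeness to *Six2* was 0.795 for *Vcan* and between 0.492 and 0.774 for the other four. Among the members, *Eya1* ranked 39 (r = 0.912, and 0.816 after centring) and *Meox1* ranked 898 (0.677, and -0.631 after centring). Over the 28 pairs of members the centred r ran from -0.849 (*Meox1* and *Pax2*) to 0.907 (*Cited1* and *Crym*), with a median of 0.153. These are descriptions over 12 points that share libraries and depth, and *Cited1* and *Crym* also share a short transcript.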

How the data were processed

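The authors isolated RNA from each kidney with Trizol and DNase, made SMARTer Ultra Low (V3) libraries and sequenced them on an Illumina HiSeq. The submitters' processing notes name cutadapt, TopHat2 2.0.9, Bowtie2, SAMtools 0.1.19, HTSeq and mm10. The annotation, strand setting and treatment of shared reads are not given in the sources used here. The deposited files hold raw read counts per gene symbol, 1 file per kidney. Groups came from the sample labels. The 8 members and all gene lists were chosen with earlier results of these data known.

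edgeR 4.0.16 under R 4.3.3 was run on each comparison separately, using TMM scaling, filterByExpr (minimum count 10, minimum total count 15), the quasi-likelihood test and Benjamini-Hochberg adjustment. The interaction used all 12 kidneys. Intervals are 95% and unadjusted. The share of all genes with an unadjusted p below 0.05 was not counted, so list counts at that threshold have no background beside them. Log2 CPM used a prior count of 2. Lengths, positions and 3′ UTRs came from GENCODE M21 (GRCm38, the assembly also called mm10). The scripts were tested on simulated counts. From each further list the text names up to 4 called genes with the largest change or, where none was called, up to 2 with the lowest p; *Wt1* is named outside this rule, chosen after its value was seen, and a result on early nephron genes is not reported here. Alternatives were DESeq2 1.42.0, other scalings and filters, a litter block, one fit of all kidneys, a transcript-length covariate and each kidney left out.

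Replicate numbers mark litters in the titles. The mean correlation across genes of deviations from the group means was -0.0386 within and 0.0483 between litters for LIN28B OE and its controls, and -0.00116 and 0.0016 for let-7 KO and its controls. Deviations from a group mean sum to 0, so the within and between values are tied to each other. They cannot show whether litters are shared. Nothing in the labels names separate dams beyond the litter, so p-values measure the spread between these kidneys. Counting floors cover counting error only.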

Additional observations from a re-analysis of the deposited data

Results flagged for a closer look

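*Six2*, *Cited1* and *Crym* differed between the models by the test of the difference itself at an unadjusted p below 0.01, though not after edgeR's adjustment. The LIN28B effect exceeded the let-7 KO effect by 2.39 on the log2 scale for *Six2* and by 2.182 for *Cited1* (edgeR, adjusted p = 0.351 for both), and by 1.071 for *Crym* (edgeR, adjusted p = 0.570). Over the alternatives the difference ran from 2.03 to 2.85 for *Six2*, from 1.87 to 2.76 for *Cited1* and from 0.882 to 1.30 for *Crym*. The adjusted p ran from 0.00943 to 0.785 for *Six2*, from 0.00974 to 0.785 for *Cited1* and from 0.144 to 1 for *Crym*, and the lowest came from DESeq2 for *Six2* and *Cited1*. Strain, timing and affected cells differ between the models and cannot be told apart from this difference.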

How the results depend on the processing

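Of 470 values of single members under an alternative, 445 kept their direction and side of the threshold, 11 lost and 9 gained a call, and 5 changed sign. In LIN28B OE the 5 member calls became 3 in one fit of all 12 kidneys and 2–6 with 1 kidney left out. The 194 gene calls became 1373 with DESeq2, 401 with at least 1 CPM in every kidney, 95 with the litter block, 967 with the length covariate and 21–2074 with 1 kidney left out, 2074 being without LIN28B OE kidney 3 and 21 without C57BL/6 WT kidney 2. In let-7 KO no setting called a member (0–0 with 1 kidney left out), and the 3 gene calls became 215 with DESeq2, 5 with the strict filter, 0 with the litter block, 5 in one fit, 1 with the length covariate and 0–5 with 1 kidney left out. Between the controls DESeq2 and one fit each called 1 member, *Eya1*, and edgeR 0–1 with 1 kidney left out (*Eya1* without mixed WT kidney 3, *Pax2* without mixed WT kidney 2), and the 188 gene calls became 749 with DESeq2, 104 in one fit, 388 with the length covariate and 36–308 with 1 kidney left out. For the difference between the models DESeq2 called 2 members (0–0 with 1 kidney left out in edgeR), and the 1 gene call became 105 with DESeq2, 3 without a filter, 3 with the strict filter, 0 with the litter block, 5 with the length covariate and 1–6 with 1 kidney left out. Signs changed for *Osr1* in let-7 KO (-0.103 with the length covariate) and with 1 kidney left out for *Crym* between the controls (-0.161 to 0.042), and for *Eya1* (-0.701 to 0.812) and *Meox1* (-0.134 to 0.425) in the difference. The cause of these shifts was not tested. The litter block changed no call of a member. Under the strict filter *Eya1* could not be tested wherever mixed WT kidneys entered, and a depth of 24 counts limits its precision there.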
